A study of Mus musculus with 22 samples.

Results

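Protocadherins are cadherin-like adhesion proteins of the cell surface, and many of them are expressed mainly in neurons. Most of the genes lie in 3 neighbouring clusters, Pcdha, Pcdhb and Pcdhg. In the Pcdha and Pcdhg clusters each gene has its own large first exon (the variable exon), which is spliced to a few constant exons that all genes of the cluster use, whereas each Pcdhb gene is a single exon. A neuron switches on only some of the variable exons, by a choice of promoters that involves CTCF, cohesin and DNA methylation, and the proteins bind like with like between membranes, so that neurites of one cell recognise and avoid each other. The C-type genes at the ends of the Pcdha and Pcdhg clusters are not part of this random choice. The remaining protocadherins are single genes at scattered places in the genome, many of them with a part in synapses or in the outgrowth of axons.

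All rows of both count tables whose gene symbol starts with Pcdh were taken, which gave 71 of 24421 genes. They were 15 Pcdha, 22 Pcdhb and 22 Pcdhg genes and 12 single genes, namely Pcdh1, Pcdh7, Pcdh8, Pcdh9, Pcdh10, Pcdh11x, Pcdh12, Pcdh15, Pcdh17, Pcdh18, Pcdh19 and Pcdh20. The counts came from total RNA of the right brain hemisphere of 22 mice of the inbred strain C57BL/6JOlaHsd. The mice were 10 to 12 weeks old and had been ranked by the tube test, in which 2 mice enter a narrow tube from opposite ends and one pushes the other out. The groups were 7 dominant and 7 submissive males in one table and 4 dominant and 4 submissive females in the other. The labels name no transgene and no drug for any group. Dominant and submissive mice with the same replicate number shared a cage according to their library names. For female replicates 3 and 4 those names hold group labels in place of cage numbers, and "cage" is used for them too. The authors report that intermediate females were regrouped and had their rank tested again. Whether replicates 3 and 4 came from such groups is not stated.

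Between 12403943 and 16488762 reads per sample were counted on genes, and protocadherins took 0.211% to 0.244% of them. Counts were scaled to CPM, which makes libraries of different depth comparable, with TMM library factors over all samples. The 54 pairs of samples within a group all differed beyond counting noise. The male and the female table differ both in sex and in the set of libraries, as the library names show, so sex and library set cannot be told apart in any comparison of the tables. Dominant male 1 stood apart, with 11.7 CPM summed over 5 cerebellar markers against 235 to 553 CPM in the other 21 samples. Submissive female 3 stood apart in 3 pituitary markers, with 22.4 CPM in sum against at most 3.41 CPM in the other samples. In these bulk samples, fewer cells of a type and less RNA per cell cannot be told apart.

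Which reads can be assigned to a clustered gene depends on the constant exons. In mm10, 14 Pcdha rows listed the same 3 constant exons between chr18:37156155-37187657, 2860 bases in all, and the 22 Pcdhg rows and the fusion row Pcdha7-g listed the same 3 constant exons between chr18:37825021-37841870, 2116 bases in all. A median of 45.4% of the exon bases of a Pcdha row and 54.2% of a Pcdhg row belonged to that row alone, and these were its variable exon. All exon bases of the 22 Pcdhb rows were their own. Among the single genes, Pcdh10 alone shared bases with another row, namely 154 bases with 1700027H10Rik.

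Rows with no exon base of their own had no counts. Pcdha4, Pcdha6 and Pcdha7 lie wholly under other rows, since their variable exons are also listed for the fusion rows Gm37013, Gm38666 and Pcdha7-g, and each had 0 counts in all 22 samples. The fusion rows took little of that signal. Gm37013 had 0 to 1 counts per sample, Gm38666 0 to 8 and Pcdha7-g 1 to 6. The zeros of these 3 genes therefore say nothing about their expression, and the counts of the other Pcdha and Pcdhg genes are treated here as counts of their variable exons. The strand setting of the counting and its handling of multi-mapping reads are not given in the sources used here, so counts of variable exons with near-identical copies in the same cluster are uncertain.

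**Figure D1:**
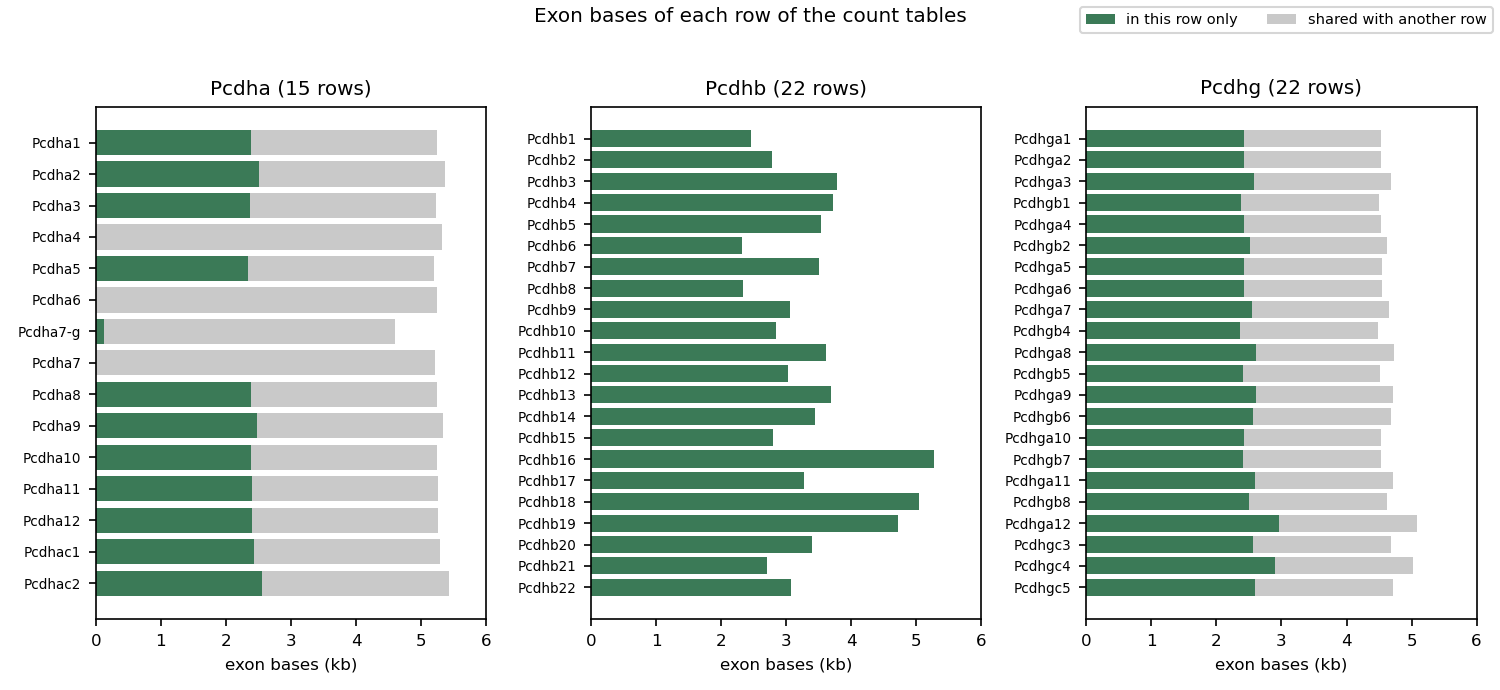
Exon bases (kb, x axis) of each clustered row (y axis, in the order of the cluster), split into bases listed for that row only (green) and bases also listed for another row (grey). Pcdha4, Pcdha6 and Pcdha7 have no green part, Pcdha7-g has 122 bases, and all Pcdhb bars are wholly green.

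Of the 71 genes, 66 passed the expression filter and were tested. The others were Pcdha4, Pcdha6, Pcdha7, Pcdha7-g and Pcdhb1, which had 2 to 10 counts per sample.

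Levels between genes were compared as CPM per kb of unshared exon, averaged over all 22 samples. The single genes were on the whole the most abundant, with a median of 11.03 CPM per kb and a range from 0.181 for Pcdh12, a protocadherin of endothelial cells, to 85.7 ± 3.18 (SD, n = 22) for Pcdh9. Next in order came Pcdh7 with 32.8 ± 1.43, Pcdh10 with 19.2 ± 1.94, Pcdh20 with 16.4 ± 0.931, Pcdh1 with 13.9 ± 2.11 and Pcdh17 with 11.6 ± 1.152 CPM per kb. From Pcdh10 down to Pcdh11x (10.5 ± 0.519), which came after Pcdh17, each gene overlapped with the next within their spread, whereas Pcdh9 lay far above Pcdh7. Pcdh19, an X-linked gene linked to epilepsy, was at 7.13 ± 0.925, Pcdh8 at 4.13 ± 0.498, Pcdh18 at 3.29 ± 0.418 and Pcdh15 at 2.43 ± 0.541 CPM per kb.

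In the clusters 3 of the 5 C-type genes stood out, namely Pcdhac2, Pcdhgc5 and Pcdhgc3. Pcdhac2, which serotonergic axons need to spread evenly, was at 17.9 ± 1.65 CPM per kb. It held 42.4% ± 2.34 (SD, n = 22) of the total per kb of the 11 Pcdha genes with a level per kb. These leave out Pcdha4, Pcdha6, Pcdha7 and Pcdha7-g. The next genes, Pcdha12 with 3.91 ± 0.750, Pcdhac1 with 3.88 ± 0.481 and Pcdha9 with 3.80 ± 0.831, did not differ beyond their spread. Among Pcdhg genes, Pcdhgc5 was at 19.5 ± 2.20 and Pcdhgc3, which binds Axin1, at 15.5 ± 2.02 CPM per kb, followed by Pcdhga11 at 8.29 ± 1.01. Pcdhgc4, a gene that keeps interneurons alive during development, was at 6.16 ± 0.762. Among Pcdhb genes, Pcdhb17 led with 9.65 ± 0.854, ahead of Pcdhb16 with 6.18 ± 0.777 and Pcdhb20 with 5.71 ± 0.440. Below Pcdhb17 the order was not firm, since Pcdhb9, at 5.63 ± 0.475 over all samples, lay within the spread of both and was second in the female table, with 7.84% of the Pcdhb total per kb against 7.29% for Pcdhb16 and 7.17% for Pcdhb20. The family medians were 2.599 CPM per kb for Pcdha, 2.92 for Pcdhb and 4.91 for Pcdhg.

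Position within the cluster went with the level in 2 of the 3 families. Spearman's rho between position and mean level was 0.79 over the 22 Pcdhb genes and 0.73 over the 9 Pcdha genes without the C-type genes, and 0.01 over the 19 Pcdhg genes without theirs. These are descriptions across genes that share the same libraries, and genes are not replicates. In Pcdhb the first 11 genes had a median of 2.04 and the last 11 a median of 5.14 CPM per kb, and in Pcdhg the first 9 had a median of 4.66 and the last 10 a median of 4.16 CPM per kb.

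**Figure D2:**
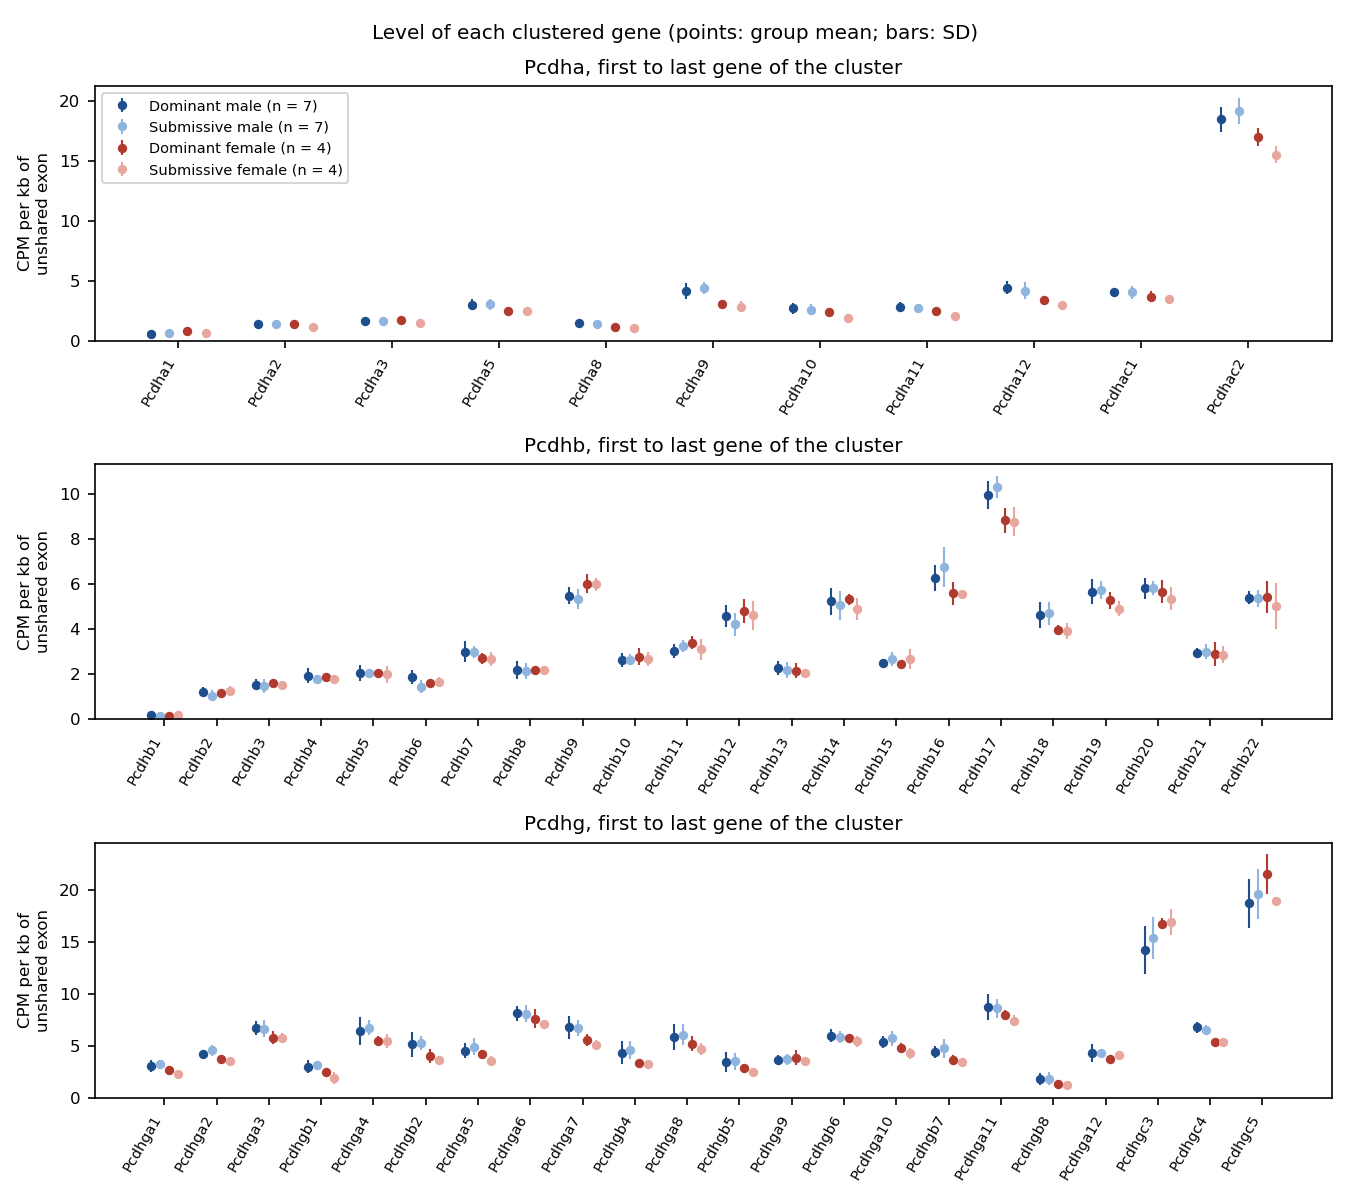
Level of each clustered gene (y axis, CPM per kb of unshared exon, linear) in the order of its cluster (x axis), as the mean (points) and SD (bars) of the 4 groups. Pcdhac2, Pcdhgc5 and Pcdhgc3 lie well above their neighbours in all groups, and Pcdhb levels are higher towards the end of the cluster.

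The first comparison asks whether protocadherin levels differ between dominant and submissive males. No member was called in males (0 of 66 at an adjusted p under 0.05, edgeR's quasi-likelihood test adjusted over all genes, against 0.0% of the 14737 genes tested). DESeq2 called 0 as well. At an unadjusted p under 0.05 there was 1 member, Pcdhb6, where 1.32% of all genes passed. The dominant males had 3.41, 4.26 and 5.75 CPM of Pcdhb6 (lowest, median and highest of 7) and the submissive males 2.51, 3.22 and 4.38 CPM. The groups overlapped, the log2 fold change was 0.37 ± 0.14 (SE) and the adjusted p was 1.00.

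The other families were as close between ranks. The median log2 fold change of dominant over submissive males was -0.01 in Pcdha, 0.00 in Pcdhb, -0.04 in Pcdhg and -0.01 in the single genes, and 27 of 66 members were positive, against 48.6% of all genes. The member with the smallest p was Pcdhac2 in Pcdha (log2 fold change -0.05 ± 0.05, edgeR adjusted p 1.00), Pcdhga2 in Pcdhg (-0.12 ± 0.08, adjusted p 1.00) and Pcdh1 among the single genes (-0.12 ± 0.11, adjusted p 1.00). The summed CPM of the Pcdha genes was 111 ± 9.07 (SD, n = 7) in dominant and 112 ± 6.77 in submissive males, and that of the Pcdhg genes 344 ± 37.1 and 354 ± 35.6. These differences were smaller than the spread between mice.

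The same comparison in females also called no member (0 of 66, where 14 of 14865 genes or 0.0942% were called), but 10 members had an unadjusted p under 0.05, or 15.2%, where 10.5% of all genes did. This count rested in part on dominant female 4, without which it was 5 (7.58%, against 9.75% of all genes). It was also 5 with the exon length correction (7.54% of all genes), 6 with DESeq2 (6.88%), 4 in one fit of all 22 samples (3.80%) and 1 with replicates 1 and 2 alone (4.91%). It was 8 with the replicate block (10.3% of all genes), and it was 12 with replicates 3 and 4 alone (18.2%, against 12.6% of all genes) and without submissive female 2 (18.2%, against 10.97%). Without submissive female 3, the sample with the pituitary markers, it was 7 (10.6%, against 9.06% of all genes) and no member was called (0 of 66). Of the 10, 9 were higher in dominant females and Pcdhga12 was lower. The smallest p was that of Pcdh1, an adhesion gene known from airway epithelium and also expressed in brain, with 59.8, 52.3, 64.8 and 64.3 CPM in dominant females 1 to 4 and 55.2, 50.8, 52.2 and 45.2 CPM in submissive females 1 to 4. The dominant mouse was higher in 4 of 4 cages, though the groups overlapped. The log2 fold change was 0.24 ± 0.06 with an adjusted p of 0.161 (edgeR), and DESeq2 gave an adjusted p of 0.0454. The difference came mostly from female replicates 3 and 4, the ones with group labels in their library names. With replicates 1 and 2 alone it was 0.08 ± 0.07 (edgeR adjusted p 0.980), and with replicates 3 and 4 alone 0.39 ± 0.07 (adjusted p 0.0130).

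Pcdhgc5, whose protein is found at GABAergic synapses, had 54.8, 49.3, 57.5 and 60.9 CPM in dominant and 48.5, 48.2, 49.7 and 49.7 CPM in submissive females. The log2 fold change was 0.17 ± 0.05 with an adjusted p of 0.209 (edgeR). Without dominant female 2, whose value was the lowest of the dominant group for both genes, Pcdh1 (adjusted p 0.0207) and Pcdhgc5 (adjusted p 0.0348) were both called, and the calls over all genes also went from 14 to 77, or 0.515%.

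The Pcdha genes leaned to the dominant side. Of 11 tested, 10 had a positive log2 fold change, with a median of 0.17, and over all 66 members 51 were positive with a median of 0.08, against 49.1% of all genes. Neighbouring genes of a cluster are not independent of each other, and no test of these counts was made. In Pcdha the member with the smallest p was Pcdha10 (log2 fold change 0.32 ± 0.12, edgeR adjusted p 0.345), with 5.93, 5.25, 6.35 and 5.62 CPM in dominant and 4.54, 4.63, 3.82 and 5.36 CPM in submissive females. In Pcdhb it was Pcdhb14 (0.12 ± 0.07, adjusted p 0.630).

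Summed over the 15 Pcdha rows, dominant females had 98.4, 91.6, 100.9 and 102.7 CPM and submissive females 88.0, 87.1, 89.2 and 90.1 CPM. The 2 ranks did not overlap, and the dominant mouse was higher in 4 of 4 cages by 4.6 to 12.6 CPM. In males the same sum was higher in the dominant mouse in 5 of 7 cages and the groups overlapped. The Pcdhg sum was also higher in the dominant female in 4 of 4 cages (324 ± 15.7 against 304 ± 6.46 CPM), with 1 dominant female inside the range of the submissive females. The Pcdhb sum was higher in the dominant female in 2 of 4 cages.

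Pcdh9 was the single tested member whose female groups did not overlap, where 5.46% of all genes did not. Dominant females had 528.0, 526.4, 547.6 and 524.8 CPM and submissive females 489.1, 519.6, 497.2 and 514.5 CPM, a log2 fold change of 0.07 ± 0.03 with an adjusted p of 0.433 (edgeR).

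Whether the effect of rank differed between the sexes was asked with an interaction term in a fit of all 22 samples. No member was called (0 of 66, as of the 15233 genes tested 0.0%, by edgeR and by DESeq2), and 3 had an unadjusted p under 0.05, where 3.32% of all genes did. These were Pcdhac2 (difference of log2 fold changes, female minus male, 0.19 ± 0.07), Pcdh1 (0.37 ± 0.17) and Pcdhb6 (-0.44 ± 0.20), each with an adjusted p of 0.999. In Pcdhg the smallest p was that of Pcdhgc5 (0.25 ± 0.12, adjusted p 0.999). The rank effects in females are thus not shown to differ from those in males for any member.

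Between the tables the protocadherins differed widely. Of 66 members 35 were called, 53.0%, where 36.2% of all 15233 genes were, and 31 of the 35 were lower in the female table. Over all genes 18.4% were called higher and 17.8% lower, and the median log2 difference was 0.00 over all genes and -0.15 over the members. With the counts of cage mates summed, so that 7 male and 4 female cages were compared, 29 members were called, 26 lower and 3 higher, where 29.7% of all genes were. The lean was in 2 clusters. Of the Pcdhg genes 16 were lower and 1 higher of 22 tested (median log2 difference -0.28), of the Pcdha genes 7 were lower and 0 higher of 11 (-0.26), of the Pcdhb genes 4 were lower and 1 higher of 21 (-0.03), and of the single genes 4 were lower and 2 higher of 12 (-0.03).

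Pcdhgc4 had the smallest p. It ranged over 16.9, 19.5 and 21.4 CPM in the 14 males (lowest, median and highest) and 14.5, 15.3 and 16.5 CPM in the 8 females. The tables did not overlap, and the log2 difference was -0.31 ± 0.05 with an adjusted p of 8.6e-06 (edgeR). Pcdh15, best known from the tip links of inner ear hair cells, had 35.1, 42.3 and 53.5 CPM in males and 26.9, 30.6 and 34.0 CPM in females. These also did not overlap, with a log2 difference of -0.50 ± 0.08 and an adjusted p of 3.7e-05. Over the 30 alternatives run, the log2 difference of Pcdh15 was -0.67 to -0.24. Both are 2 of 66 members without overlap, where 6.11% of all genes had none.

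The Pcdha genes with the clearest difference were Pcdha9, with 8.49, 10.7 and 13.1 CPM in males against 6.32, 7.23 and 8.82 in females (-0.53 ± 0.08, adjusted p 2.3e-05), Pcdha12 (-0.43 ± 0.08, adjusted p 1.3e-04) and Pcdhac2 (-0.21 ± 0.04, adjusted p 4.0e-05). Pcdhac2 had 43.5, 48.3 and 54.8 CPM in males and 37.5, 41.6 and 45.2 CPM in females, so that a few samples overlapped. Pcdhb17 (-0.20 ± 0.04), Pcdh18 (-0.27 ± 0.06), Pcdhgb2 (-0.45 ± 0.10), Pcdhga7 (-0.33 ± 0.07) and Pcdhga1 (-0.35 ± 0.08) completed the 10 smallest p, with edgeR adjusted p from 2.3e-04 to 0.00148.

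The 4 members Pcdh10, Pcdh8, Pcdhb9 and Pcdhgc3 were called higher in the female table. Pcdh10, a gene for synapse elimination and axon growth, had 177, 210 and 257 CPM in males and 227, 243 and 261 CPM in females (log2 difference 0.20 ± 0.05, edgeR adjusted p 0.00151). Its log2 difference was 0.16 to 0.39 over the 30 alternatives run. Pcdh8, which neuronal activity induces, was at 15.6 ± 1.74 CPM (SD, n = 14) in males and 18.2 ± 1.22 CPM (SD, n = 8) in females, and Pcdhb9 at 16.5 ± 1.25 and 18.4 ± 1.01 CPM. Pcdhgc3 was at 37.9 ± 5.49 and 43.1 ± 2.27 CPM, with dominant male 1 the lowest sample at 26.9 CPM. The call of Pcdhgc3 was lost in 16 of the 30 alternatives run (adjusted p up to 0.183), most of them leaving out 1 sample, and that of Pcdhb9 in 3 (up to 0.0655). With the correction for exon length, where 35.4% of all genes were called, 6 members were higher and 28 lower, and 4 of the 6 called single genes were then higher.

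**Figure D3:**
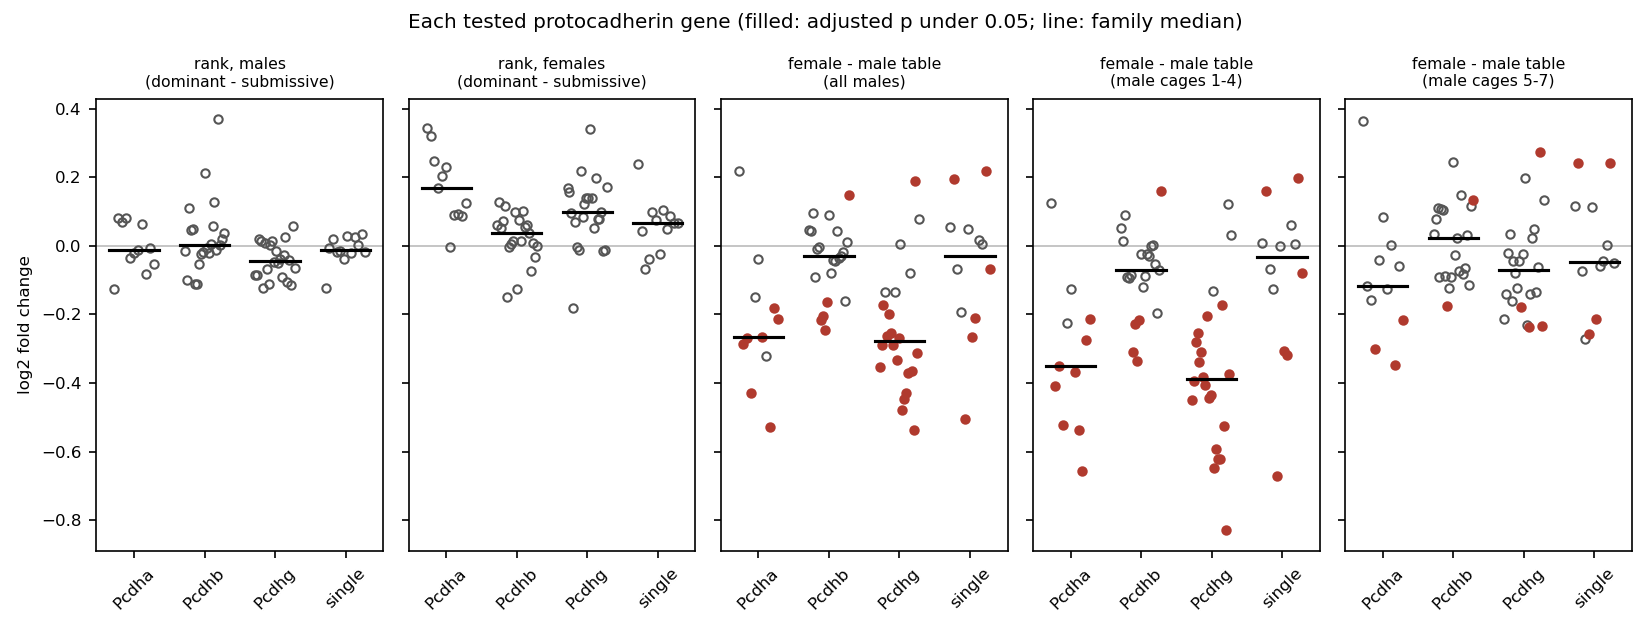
Log2 fold change (y axis) of each tested member, by family (x axis), for rank in males, rank in females and the female against the male table with all males, with male cages 1 to 4 and with male cages 5 to 7. Filled points had an adjusted p under 0.05, lines are family medians, and filled points are many below 0 in Pcdha and Pcdhg with cages 1 to 4 but few with cages 5 to 7.

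Some markers of cell types were called between the tables as well, where 36.2% of all genes were. The sum of 5 neuronal markers was 3526 to 4084 CPM in males and 4246 to 4524 CPM in females, with 2 of 5 called, both higher. The sum of 3 markers of oligodendrocyte precursors was 121 to 147 CPM in males and 106 to 121 CPM in females, with all 3 called, 1 higher and 2 lower, and none at 0 in any sample. The sum of 5 oligodendrocyte markers was 4846 to 5816 CPM in males and 4316 to 5209 CPM in females, and Mbp, Mag and Cnp were called lower. Of 5 astrocyte markers Aldh1l1 and Gja1 were called, both lower, of 4 microglial markers 1 was higher and 1 lower, of 5 cerebellar markers Cbln1 was higher, and the blood marker Alas2 was lower. None of the 4 endothelial and 3 choroid plexus markers was called. The part of these cell types in the difference of the protocadherins was not tested.

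Few protocadherins were called by cage in the male table. Cage mates had neighbouring running numbers in the library names, and these numbers rose with the cage number in both tables. Cage and library order therefore cannot be told apart in the cage tests. The cage test in males, with rank as a term, called 2 of 66 members, 3.03% (Pcdh15, adjusted p 0.00343, and Pcdhgb5, adjusted p 0.00962, edgeR), where 5.89% of all genes were called. At an unadjusted p under 0.05 there were 21 members, 15 of them among the 22 Pcdhg genes and 7 of these the 7 tested Pcdhgb genes, where 22.3% of all genes passed. In Pcdha 3 of 11, in Pcdhb 0 of 21 and among the single genes 3 of 12 passed. The 21 became 11 without dominant male 6 (16.7%, against 17.0% of all genes), 14 with the exon length correction (17.7% of all genes) and 8 with DESeq2 (12.6%). It became 29 without dominant male 1 (43.9%, against 27.7% of all genes), 28 without submissive male 1 (42.4%, against 31.1%) and 26 without both (39.4%, against 28.4%). The smallest p was that of Pcdha9 in Pcdha (adjusted p 0.113) and of Pcdhb9 in Pcdhb (adjusted p 0.246).

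Pcdh15 had 49.7, 46.1, 44.1, 53.4, 37.4, 36.6 and 36.2 CPM in dominant males 1 to 7 and 52.9, 40.5, 50.3, 53.5, 36.6, 35.1 and 37.7 CPM in submissive males 1 to 7. The 8 samples of cages 1 to 4 all lay above the 6 samples of cages 5 to 7 in both ranks. Pcdhgb5 had 8.74, 9.33, 10.3, 11.3, 6.75, 5.45 and 5.96 CPM in the dominant and 10.99, 9.74, 8.52, 9.90, 7.72, 5.62 and 6.27 CPM in the submissive males. Here too no sample of cages 1 to 4 fell to the level of cages 5 to 7. Among the 66 members, 8 or 12.1% showed this separation, where 8.48% of all genes did in one direction or the other. These 8 had cages 1 to 4 on top: Pcdh15, Pcdha8, Pcdhga3, Pcdhga9, Pcdhgb1, Pcdhgb5, Pcdhgb7 and Pcdhgb8. The split into cages 1 to 4 and 5 to 7 was made after the values were seen, so no test of it is given. Some markers of cell types were called by cage in males too, where 5.89% of all genes were. These were 2 of 5 neuronal markers (Rbfox3 and Slc17a7) and 1 of 5 of astrocytes (Aldh1l1). Of endothelium 1 of 4 (Cldn5) and of oligodendrocyte precursors 1 of 3 (Cspg4) were called. None was called of the oligodendrocyte, microglial, cerebellar, choroid plexus, blood and pituitary markers. The neuronal sum was 3526 to 3984 CPM in cages 1 to 4 and 3633 to 4084 CPM in cages 5 to 7. The endothelial sum was 91.4 to 114 and 109 to 124 CPM. The choroid plexus sum was 416 to 809 and 597 to 991 CPM (medians 568 and 749 CPM). All of these ranges overlapped. Their part in the steps between cages was not tested.

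The count of cage calls rested in part on cage 1. Without dominant male 1, the sample low in cerebellar markers, 7 members were called where 12.02% of all genes were, without submissive male 1 also 7 where 14.2% were, and without both mice of cage 1 again 7 where 12.5% were. Without both, the 7 were Pcdh15, Pcdh20, Pcdhga8, Pcdhgb4, Pcdhgb5, Pcdhgb7 and Pcdhgb8. With the exon length correction the call of Pcdh15 was lost (adjusted p 0.0990) while that of Pcdhgb5 was kept and Pcdh7 was added. In females the cage test called no member (0 of 66, where 0.074% of all genes were called, and 0 by DESeq2), and 4 had an unadjusted p under 0.05 (5.11% of all genes). The smallest p in each family was that of Pcdhac1 (adjusted p 0.999), Pcdhb21 (0.887), Pcdhga8 (0.913) and Pcdh15 (0.975).

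**Figure D4:**
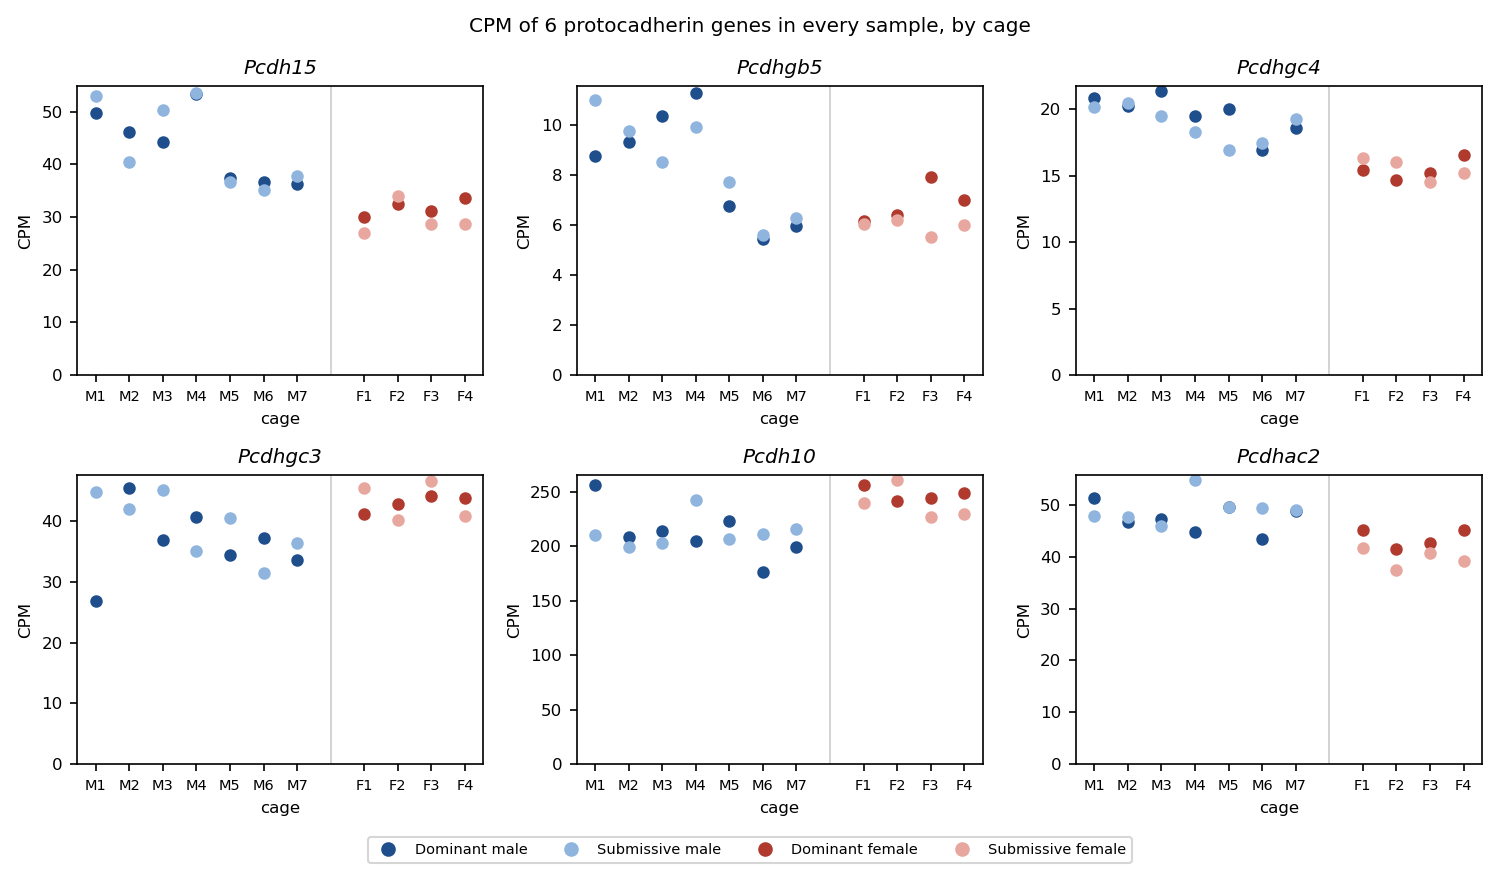
CPM (y axis, from 0) of 6 members in every sample, placed by cage (x axis, M for male and F for female cages) and coloured by rank and sex. Pcdh15 and Pcdhgb5 are higher in male cages 1 to 4 than in cages 5 to 7, and Pcdhgc4 is lower in all 8 females than in all 14 males.

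The family sums showed the same steps. The Pcdhg sum was 343 to 407 CPM in male cages 1 to 4, 299 to 328 CPM in cages 5 to 7 and 294 to 342 CPM in females. The Pcdha sum was 109 to 123, 93.8 to 108 and 87.1 to 103 CPM in the same order. For both families cages 1 to 4 lay above cages 5 to 7 without overlap, and the females overlapped with cages 5 to 7. The Pcdhb sum (277 to 310, 264 to 283 and 252 to 289 CPM) and that of the single genes (1502 to 1665, 1434 to 1568 and 1449 to 1590 CPM) overlapped between all of them.

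**Figure D5:**
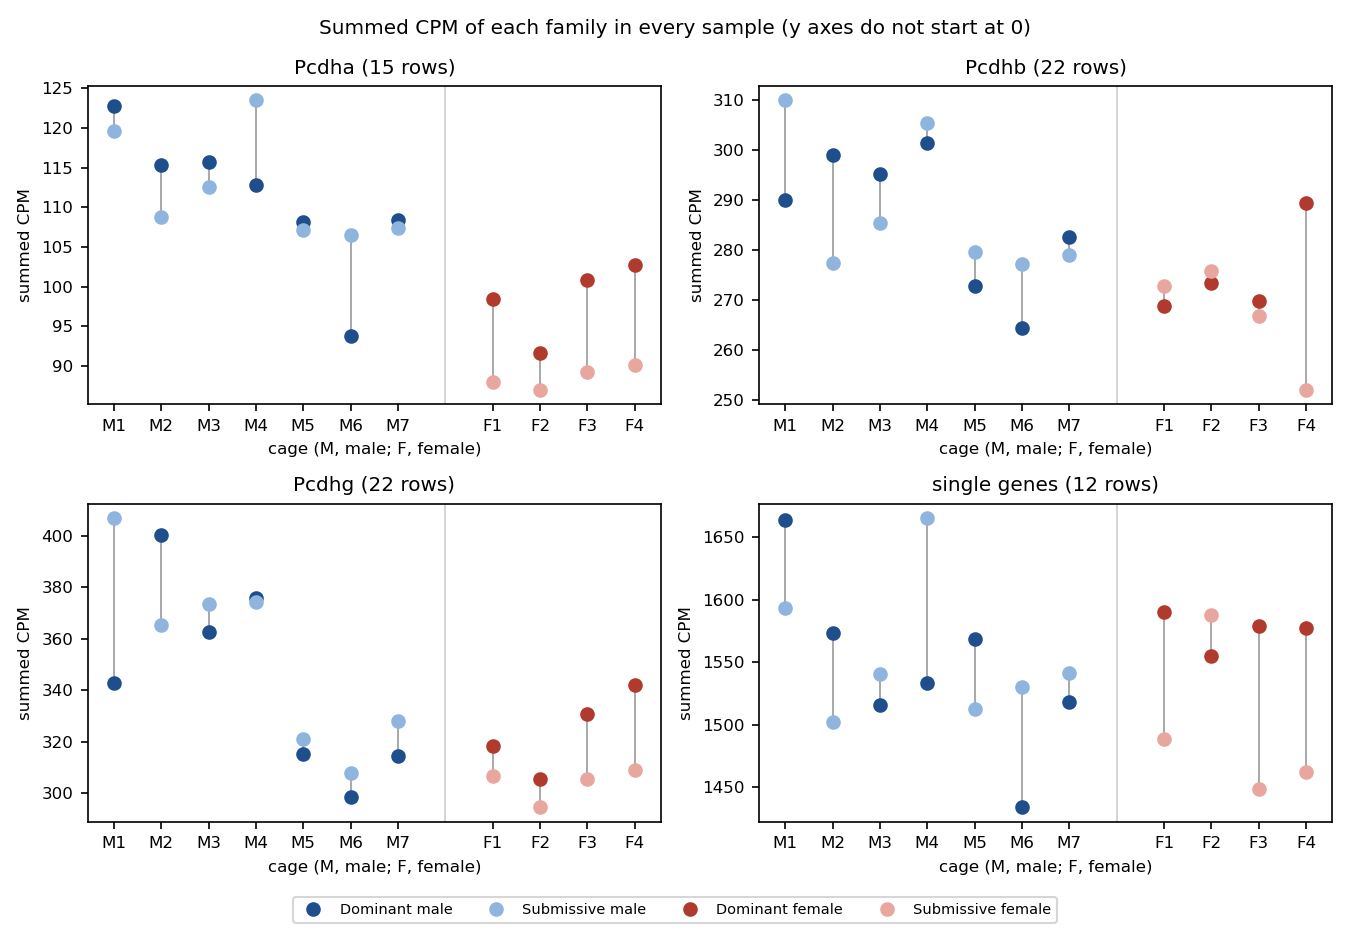
Summed CPM of each family (y axis, not starting at 0) in every sample, placed by cage (x axis), with a line joining cage mates. Pcdhg sums are 343 to 407 CPM in male cages 1 to 4 and 299 to 328 CPM in cages 5 to 7, and Pcdha sums are higher in the dominant mouse in all 4 female cages.

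The tables were also compared with male cages 1 to 4 or male cages 5 to 7 alone. The fits below were added after the values per cage were seen. Cages 5 to 7 had by then been seen to hold the lower Pcdha and Pcdhg sums. A smaller difference from the females with these cages therefore follows from the choice, and no conclusion is drawn from it. With the 8 males of cages 1 to 4 alone, 38 of 66 members were called, 35 of them lower in females, where 46.1% of all genes were called, and the median log2 difference was -0.39 in Pcdhg and -0.35 in Pcdha. With the 6 males of cages 5 to 7 alone, 13 of 66 members were called, 9 lower and 4 higher, or 19.7%, where 27.4% of all genes were, and the medians were -0.07 in Pcdhg and -0.12 in Pcdha. The ratio of the Pcdhg sums of females and males was -0.15 on the log2 scale with all males and -0.000782 with cages 5 to 7, and that of the Pcdha sums was -0.25 with all males and -0.17 with cages 5 to 7.

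With cages 5 to 7 alone, the 13 members still called were Pcdh15 (log2 difference -0.26 ± 0.05, adjusted p 2.6e-04), Pcdhgc4 (-0.23 ± 0.05, adjusted p 0.00227), Pcdhac2 (-0.22 ± 0.04, adjusted p 2.3e-04), Pcdha9 (-0.35 ± 0.08), Pcdha12 (-0.30 ± 0.08), Pcdhb17 (-0.17 ± 0.05), Pcdh18 (-0.21 ± 0.06), Pcdhga7 (-0.18 ± 0.06) and Pcdhgb2 (-0.24 ± 0.09), all lower in females, and Pcdh10 (0.24 ± 0.04, adjusted p 1.4e-04), Pcdhgc3 (0.28 ± 0.05, adjusted p 3.3e-04), Pcdh8 (0.24 ± 0.07) and Pcdhb9 (0.13 ± 0.05), all higher, by edgeR. Apart from Pcdhac2, the 9 lower members had smaller differences than with all males. The oligodendrocyte precursor markers summed to 129 to 147 CPM in cages 1 to 4 and 121 to 137 CPM in cages 5 to 7, and their part in these differences was not tested.

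Genes that act with protocadherins were counted in the same fits, from lists of regulators of the promoter choice, of binding partners and of other cadherins. By rank, 0 of 17 regulators, 0 of 20 partners and 0 of 24 other cadherins were called in males, in females and in the interaction. Among the partners, Wasf1 of the WAVE complex came nearest in females (log2 fold change of dominant over submissive 0.28 ± 0.06, edgeR adjusted p 0.0764). With the cage as a replicate block Wasf1 was called (edgeR adjusted p 0.0395). With this block 0.242% of all genes were called, against 0.0942% without it. Between the tables, where 36.2% of all genes were called, 6 of 17 regulators were, 1 higher and 5 lower, with a median log2 difference of -0.01. The lower ones included the cohesin cofactors Pds5b (-0.27 ± 0.04, adjusted p 5.8e-06) and Pds5a (-0.17 ± 0.03), as well as the histone methyltransferase Setdb1 (-0.27 ± 0.05), and the cohesin subunit Smc3 was higher (0.15 ± 0.03). Ctcf was not called.

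Of the partners 11 of 20 were called, 6 higher and 5 lower, with a median of -0.01. The small GTPase Rac1 (0.34 ± 0.02, adjusted p 3.6e-11), Axin1 (0.34 ± 0.04), the kinase Ptk2b (0.35 ± 0.05) and the WAVE complex subunit Nckap1 (0.15 ± 0.02) were higher, and the kinase Taok2 was lower (-0.21 ± 0.03). Of the other cadherins 8 of 24 were called, 2 higher and 6 lower, with a median of -0.07. Fat4 (-0.39 ± 0.05, adjusted p 3.5e-06), Fat1 (-0.44 ± 0.07), Clstn3 (-0.19 ± 0.03), Cdh13 (-0.19 ± 0.04) and Cdh10 (-0.12 ± 0.03) were lower. By cage in males, where 5.89% of all genes were called, Setdb1 (adjusted p 0.0286), Cdh22 (adjusted p 0.00298) and Fat4 (adjusted p 0.0383) were, and 0 of the 20 partners.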

How the data were processed

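The deposited values were raw counts of reads per gene. The authors made stranded libraries after removal of ribosomal RNA, clipped adapters (cutadapt 1.15) and bases of low quality (bbduk), aligned reads to mm10 (STAR 2.6.0a) and assigned them to genes (featureCounts 1.6.2, which also lists each gene's exons). Groups and replicate numbers came from the sample labels, and cages and library sets from the library names.

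Counts were filtered with edgeR 4.0.16 in R 4.3.3 (minimum count 10, minimum total 15), scaled with TMM and tested with the quasi-likelihood test over all genes with Benjamini-Hochberg adjustment at 0.05. Rank was tested within each sex, the interaction and the tables over 22 samples with a mean per group, and cage within each sex beside rank. Where nothing says that samples came from separate litters, p-values measure the spread between these mice. Levels per kb used exon bases that no other row covers, for the 67 members with at least 500 such bases. A count of 0 allows up to 3 counts.

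All 12 single genes were named. In each cluster the 3 genes with the highest level per kb, the C-type genes, the smallest p of each test and up to 10 called members per test were named, with up to 5 called genes of each other list. One further called gene of the regulator list is not reported here. Members, lists and rules were chosen with earlier results of these data known. Pcdhb1, Pcdha4, Pcdha6, Pcdha7 and genes listed for cage separation were named beyond the rule after their values were seen.

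The replicate numbers pair the samples, since same-numbered mice shared a cage. After subtracting group means, the correlation of cage mates across genes averaged 0.188 in males (range -0.04 to 0.29) and 0.02 in females, against -0.03 and -0.01 for mice of different cages. Alternatives were DESeq2 1.42.0, its size factors, no filter, a mean count of at least 50, a loess correction for exon length (span 0.3), the replicate block, subsets of cages, counts summed per cage between the tables, and leaving out each sample.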

Additional observations from a re-analysis of the deposited data

Results flagged for a closer look

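A sample was set apart where its gap to the next sample of its group was large for the range of the group (Dixon's 95% value). This was checked in 152 groups of samples, over the 4 family sums and the 34 named genes, and 7 were found, about the share that chance gives (1 in 20). No explanation was weighed. Pcdh9 was 548 CPM in dominant female 3, against 525 to 528 CPM in the other 3 dominant females. Pcdh12 was 0.313 CPM in submissive female 2, against 1.13 to 1.18 CPM. Pcdh11x was 94.1 CPM in dominant female 1, against 84.1 to 85.7 CPM, and 97.3 CPM in submissive female 2, against 88.5 to 89.1 CPM. Pcdha9 was 8.82 CPM in submissive female 4, against 6.32 to 6.58 CPM. Submissive male 4 was the highest of its group for Pcdh10 (243 CPM, against 200 to 216) and for Pcdhac2 (54.8 CPM, against 45.9 to 49.7).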

How the results depend on the processing

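Of 40 results (counts of called genes, family sums and levels), 27 moved by less than 1.5 times, or for sums and levels by less than the spread between replicates, under all alternatives run. None of the log2 fold changes of named genes recomputed under these alternatives changed sign; the cage tests give none. The exceptions follow, and their cause was not tested.

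By rank in females, 1 member (Pcdh1) was called with DESeq2, without the expression filter and in replicates 3 and 4 only, and 0 to 2 with a sample left out, the 2 without dominant female 2. Over all genes, 0.0942% were called in the fit reported, 0.518% with DESeq2, 0.424% without the filter, 0.804% in replicates 3 and 4 only and 0 to 0.515% with a sample left out. The log2 fold change of Pcdh1 was 0.08 to 0.39 over all alternatives, the lowest in replicates 1 and 2 only and the highest in replicates 3 and 4 only. Of the partners 1 (Wasf1) was called with DESeq2, without the filter, with the replicate block and in replicates 3 and 4 only, and 0 to 1 with a sample left out. Of the other cadherins 1 (Celsr2) was called without the filter and in replicates 3 and 4 only. With the replicate block, 0 protocadherins were called by rank in males, 0 in females and 0 for the interaction, with and without the exon length correction, and Wasf1 was the only gene of the 3 other lists whose call the block changed. Over all genes 36 were called in females with the block and 8 with the block and the length correction, against 14 without.

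Between the tables, 31 to 37 members were called with a sample left out (32.0% to 37.9% of all genes), 34 with the length correction (35.4%), 29 with counts summed per cage (29.7%) and 13 with male replicates 5 to 7 only (27.4%), when Pcdhga1 was also lost (adjusted p 0.0709). The difference of Pcdhg sums was then -0.000782 (log2). Of the other cadherins 13 were called with male replicates 1 to 4 only, and 8 to 12 with a sample left out.

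By cage in males, 5 of 68 members or 7.35% were called without the filter (5.90% of all genes), 7 without both mice of cage 1 (12.5%), and 2 to 7 with a sample left out (2.58% to 14.2%), 7 without dominant male 1 and 7 without submissive male 1. Of the regulators 2 were called with DESeq2 and without the filter, 0 with the length correction, 3 without cage 1 and 0 to 4 with a sample left out. Of the partners 1 was called with DESeq2, with a mean count of at least 50, with the length correction, without the rank term and without cage 1, and 0 to 2 with a sample left out. Of the other cadherins 4 were called without cage 1, and 1 to 6 with a sample left out, 6 without submissive male 1. In females 1 other cadherin was called without the filter, and 0 to 1 with a sample left out.

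With the full length of each row, which counts the constant exons, the median level was 1.18 CPM per kb in Pcdha and 2.64 in Pcdhg. Genes with few counts, such as Pcdhb1 and Pcdh12, limit what small differences could be seen, and 4 females per rank limit that comparison.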
